A study of Heliconius melpomene malleti and Heliconius melpomene plesseni with 96 samples.

Results

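The distal forewing of Heliconius melpomene pupae was compared between day 3 and day 1 of pupal development in the races plesseni and malleti. The comparison used 11 of the 96 microarrays of the study, chosen by their labels as every distal forewing array of those days but 1. Day 3 was represented by 5 arrays, 3 of plesseni (replicates 12, 34 and 56) and 2 of malleti (replicates 11 and 33). Day 1 was represented by 6 arrays, 3 of plesseni (replicates 4, 26 and 54) and 3 of malleti (replicates 3, 25 and 53). The array left out carries the label malleti, distal forewing, day 3 (replicate 55). Its rank correlation with the mean profile of the distal forewing on any day reached 0.682, against 0.761 with the eye on day 3, and its median intensity was low, at 37.3. The whole study covered the distal forewing, proximal forewing, hindwing and eye on 4 days in both races, with no mutant or treated group, and 1 sample on each array, labelled with Cy3. The replicates are described as independent. Neither the number of pupae behind a sample nor whether sections of 1 pupa went to different arrays was stated.

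During the first pupal days the wing is an epithelial sheet in which the precursors of the colour scales are set apart, and the scales themselves grow and take up pigment later. The distal forewing carries the forewing band, which in plesseni is split and coloured red and white and in malleti is yellow, while malleti also has red-orange rays and a red patch elsewhere on the wings. Red, yellow and white pattern elements and the shape of the band are under the control of a few large-effect loci in this species, among them Ac, B/D and Yb, whose names are shared by the AC, BD and YB walks on the array. Steroid hormone pulses time the events of pupal development in insects, and many wing genes are known to be active for a short part of it.

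Each array gave 12832 features, of which 12778 are predicted genes, 51 are single features of the 3 walks and 3 are summaries of whole walks. The files name a feature only by its scaffold and its position on it, and 0 of the 12832 could be paired with a named gene through the reference table used here, so no gene names or functions are given. Median intensities of the 11 arrays ran from 39.02 to 228, within the range of 22.98 to 376 of the whole study. The lowest was that of replicate 34 of plesseni on day 3, close to the 37.3 of the array left out. Both were dim, with a median log2 intensity below 5.5. Each of the 11 arrays was closest to a wing section of its own day. Its rank correlation with the mean of the other distal forewing arrays of that day was 0.953 to 0.987, and with the hindwing of that day 0.960 to 0.980, against 0.866 to 0.917 with the closest eye profile. The distal forewing was the closest profile for 5 arrays and the hindwing for 6, including all 5 of day 3, so whole profiles did not tell these sections apart on day 3. On day 1 only replicate 26 of plesseni was closer to the hindwing (0.9710) than to the distal forewing (0.9706). On day 3 replicates 34 and 56 were also closer to the proximal forewing (0.9676 and 0.9574) than to the distal forewing (0.9606 and 0.9534), while replicates 11, 12 and 33 were not. The distal mean of day 3 rests on fewer arrays than those of the other wing sections. Levels below are log2 intensities after quantile normalization over the 96 arrays. Over all features of the 11 arrays the lower quartile was 4.55, the median 6.88 and the upper quartile 9.47. Arrays have no read depth, and precision depends on how many arrays a group holds and on the spread among them.

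Day 3 and day 1 of the distal forewing differed over a large part of the predicted genes, in both directions. With race as a factor in a linear model (limma), 3018 of 12832 features passed a Benjamini-Hochberg adjusted p of 0.05, which is 23.5% of those tested. Of these, 1434 rose on day 3 (11.2%) and 1584 fell (12.3%). The balance of directions moved with the scaling, since 47.5% of the calls were higher after quantile normalization, 39.5% of 1261 calls on the deposited scale (498 higher, 763 lower) and 54.7% of 2512 calls with median-centred arrays (1375 higher, 1137 lower). A change of at least 2-fold was called for 2019 features (15.7%), 969 upward (7.55%) and 1050 downward (8.18%). At 4-fold or more there were 390 rises (3.04%) and 378 falls (2.95%), at 16-fold or more 101 rises (0.787%) and 56 falls (0.436%), and at 64-fold or more 27 rises (0.21%) and 7 falls (0.0546%). All 5 day 3 arrays lay above all 6 day 1 arrays for 876 features (6.83%), and below them for 977 (7.61%). In bulk tissue, fewer cells of a type and less RNA per cell cannot be told apart, and this holds for each change given here.

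**Figure D1:**
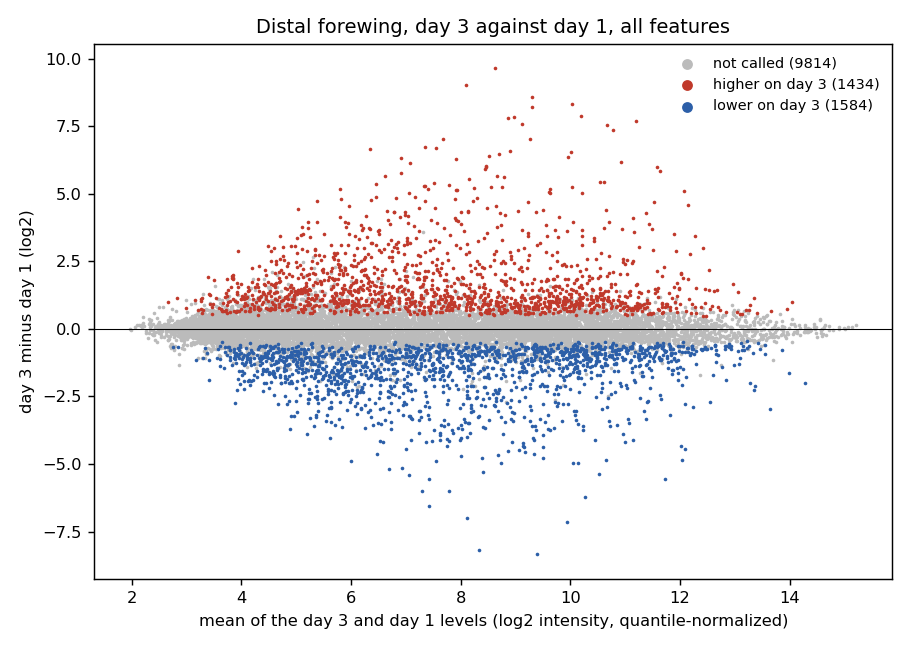
The log2 difference of day 3 minus day 1 in the distal forewing is plotted against the mean of the day 3 and day 1 levels (log2 intensity), 1 point per feature. Red points are the 1434 features higher on day 3, blue points the 1584 lower on day 3 and grey points those not called, and the tall red points reach 9.64 while the lowest blue point lies at -8.35.

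The first principal component of the 11 arrays held 51% of the variance and separated the days without overlap. Replicate 56 of plesseni was the day 3 array nearest to day 1 on it, at 44.1, and replicate 11 of malleti the farthest, at 80.7, while the day 1 arrays lay between -58.4 and -41.7. Arrays correlated with each other at 0.928 to 0.960 within day 3, at 0.953 to 0.993 within day 1 and at 0.883 to 0.928 between the days (Pearson, over features). The median SD about the race means was 0.429 on day 3 and 0.297 on day 1. Detector gain differed among the arrays, but each gain held both days. The number of calls was 2890 with gain in the model, 1754 among the arrays of gain 440 alone and 365 among the 4 arrays of gain 460 alone. The fit of gain 460 had no race term. Its day 3 arrays were both of plesseni and its day 1 arrays of both races, so race was partly mixed with day there. Both days shared 2 slides. On the slide of replicate 34 (day 3) and replicates 3 and 26 (day 1), 98.1% of the called features differed in the called direction, and on the slide of replicate 56 (day 3) and replicate 53 (day 1) 91.9% did, although these arrays also entered the calls. These differences had no race term. Replicates 34 and 56 are of plesseni, replicates 3 and 53 of malleti and replicate 26 of plesseni, so race was mixed with day on both slides. With the slide as a random block 3001 features were called.

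The steepest rise was that of HE671547:73513-80980, a predicted gene read by 9 probes. In plesseni its level was 14.03, 13.43 and 12.58 on day 3 (replicates 12, 34 and 56), and in malleti 13.57 and 13.65 (replicates 11 and 33). On day 1 it was 3.87, 4.13 and 3.88 in plesseni and 3.66, 3.96 and 3.32 in malleti, so the groups lay far apart and every day 1 array was below the lower quartile of all features. The difference was 9.64 ± 0.26 (log2, SE; adjusted p = 9.541e-10, limma), from means of 13.45 ± 0.54 on day 3 (SD, n = 5) and 3.803 ± 0.28 on day 1 (SD, n = 6). Its level was transient: means were 5.69 ± 1.69 on day 5 and 4.46 ± 0.66 on day 7 (SD, n = 6 each).

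HE670537:48899-54230, read by 4 probes, was the next. Its day 3 levels were 13.55, 13.78 and 9.90 in plesseni and 13.50 and 12.13 in malleti, against day 1 levels of 2.60, 3.98 and 2.73 in plesseni and 3.91, 3.77 and 4.70 in malleti. Replicate 56 of plesseni was the lowest of the day 3 arrays and still lay above every day 1 array. The difference was 9.03 ± 0.64 (log2, SE; adjusted p = 1.422e-06, limma). This feature was also close to its day 1 level later, at 4.64 ± 0.45 on day 5 and 3.95 ± 0.47 on day 7 (SD, n = 6 each).

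Among the falling features HE670515:13623-20570 had the deepest drop. It stood at 3.30, 5.02 and 7.38 in plesseni and 5.02 and 5.37 in malleti on day 3, against 13.72, 12.61 and 13.94 in plesseni and 13.97, 13.23 and 14.01 in malleti on day 1. All day 1 arrays were far above the upper quartile of all features, and replicate 56 of plesseni was again the day 3 array nearest to them. The difference was -8.35 ± 0.58 (log2, SE; adjusted p = 1.213e-06, limma), and the level remained low at 5.64 ± 0.72 on day 5 and 5.33 ± 0.81 on day 7 (SD, n = 6 each).

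HE670342:30-224 followed, a short model with 3 probes at the end of its scaffold. On day 3 it was at 3.47, 4.76 and 5.44 in plesseni and 3.03 and 4.48 in malleti, and on day 1 at 12.39, 10.66 and 12.62 in plesseni and 12.54, 12.81 and 13.55 in malleti. The ranges were separated by more than the spread within either day. Its difference was -8.17 ± 0.53 (log2, SE; adjusted p = 7.078e-07, limma), with 5.14 ± 1.14 on day 5 and 4.33 ± 0.71 on day 7 (SD, n = 6 each).

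**Figure D2:**
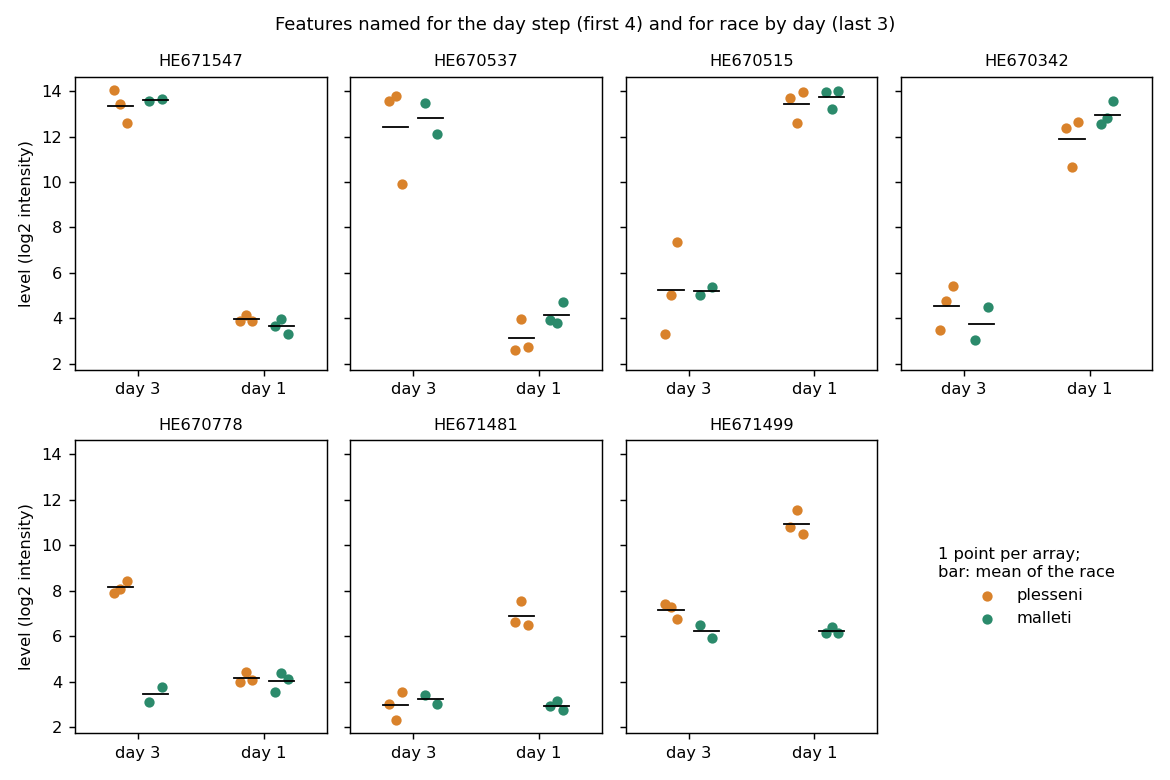
Level (log2 intensity) in each array, day 3 left and day 1 right in every panel, plesseni in orange and malleti in green, with a bar at the mean of each race. The first 4 panels are the features of the largest rises and falls, where both races move together, and the last 3 are those with a race by day difference, where 1 race and day stands apart from the rest.

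The features with the largest changes were set against the levels of all features. Of the 101 features that rose at least 16-fold, 23 were below the lower quartile on day 1, about the share of all features found there. Below the median on day 1 were 78 of the 101, and 81 stood above the upper quartile on day 3. The median level of the 101 was 5.399 on day 1, 10.89 on day 3, 8.34 on day 5 and 6.96 on day 7, a peak on day 3 in the median. The 56 that fell at least 16-fold had a median of 11.10 on day 1, 6.01 on day 3, 6.73 on day 5 and 6.47 on day 7, so in the median they did not return. These sets were chosen for their day 3 and day 1 levels, and only the levels of days 5 and 7 are independent of the choice.

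The 27 features that rose 64-fold or more lay on 21 scaffolds, with day 3 means of 9.64 to 15.09 and day 1 means of 3.04 to 7.83. Their means on later days were spread widely, from 4.64 to 13.36 on day 5 and from 3.704 to 11.44 on day 7, so the return to a low level was not shared by all of them. The 7 that fell 64-fold or more lay on 6 scaffolds, with day 3 means of 4.16 to 7.18 and day 1 means of 10.28 to 13.58. Within this set the day 5 means ran from 4.08 to 11.90, so at least 1 had come back up by then. Of the 27 rising features, 7 lay on 1 scaffold, HE671115.

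Called features were counted by runs of neighbours along the scaffolds. Of all features, 7.55% rose and 8.18% fell by at least 2-fold. Among these, 691 rises and 734 falls had no neighbour called the same way, 93 rising and 114 falling runs were of 2 neighbours, and 21 rising and 22 falling runs were of 3. How many would stand alone under random placement was not tested. Runs of 5 or more neighbours numbered 1 in each direction.

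The rising run lay on HE671115 between 118988 and 291449 and held 12 of the 31 features of that scaffold, none overlapping another. All 12 had day 3 arrays above all day 1 arrays, against 6.83% of all features. Runs were made only of called changes of at least 2-fold, which favours such a separation. The changes of the 12 ran from 2.20 to 8.57 with a median of 6.502 (log2). The median level of the 12 was 4.78 on day 1, 11.94 on day 3, 6.52 on day 5 and 4.27 on day 7. HE671115:268900-269670 reached 15.09 ± 0.07 on day 3 (SD, n = 5), against 7.30 ± 1.16 on day 1 (SD, n = 6), and was the brightest of the run with the tightest day 3 arrays. The largest change belonged to HE671115:223830-225883, at 13.89, 14.13 and 11.46 in plesseni and 14.48 and 13.85 in malleti on day 3, against 4.90, 5.01 and 5.12 in plesseni and 5.28, 4.91 and 5.03 in malleti on day 1. That is 8.57 ± 0.43 (log2, SE; adjusted p = 9.998e-08, limma), and replicate 56 of plesseni lay lowest on day 3.

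The members of the run parted after day 3. HE671115:223830-225883 was still at 13.36 ± 1.25 on day 5 and at 6.51 ± 2.42 on day 7 (SD, n = 6 each). HE671115:185686-189722 had a mean of 12.71 on day 3 and 12.65 on day 5, and HE671115:207563-212194 had 6.55 on day 3 and 10.50 on day 5. By contrast HE671115:137251-150990 was at 12.92 on day 3 and 6.45 on day 5. The same run was called upward in 11 of 12 features in the proximal forewing, 10 in the hindwing and 8 in the eye, against 8.75%, 5.67% and 0.717% of all features called upward in those sections.

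The falling run lay on HE671280 between 751775 and 788469 and held 6 of the 52 features of that scaffold. Changes ran from -3.55 to -1.52 (log2), the median being -3.06. For all 6 every day 3 array lay below every day 1 array, against 7.61% of all features, and the choice of called falls favours this too. HE671280:787129-788469 fell most, with 7.78, 6.84 and 5.31 in plesseni and 6.04 and 5.35 in malleti on day 3, against 10.47, 8.54 and 10.75 in plesseni and 9.80, 9.83 and 9.16 in malleti on day 1. The gap between the days was under 1 log2 unit at its narrowest, while the difference of means was -3.55 ± 0.48 (log2, SE; adjusted p = 2.605e-04, limma). The median level of the run was 9.01 on day 1, 5.82 on day 3, 6.49 on day 5 and 6.93 on day 7. All 6 were also called downward in the proximal forewing and in the hindwing and 0 of 6 in the eye, against 9.55%, 5.64% and 0.242% of all features called downward in those sections. The difference from the eye's step was not called for any of the 6 (median step in the eye -0.76).

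**Figure D3:**
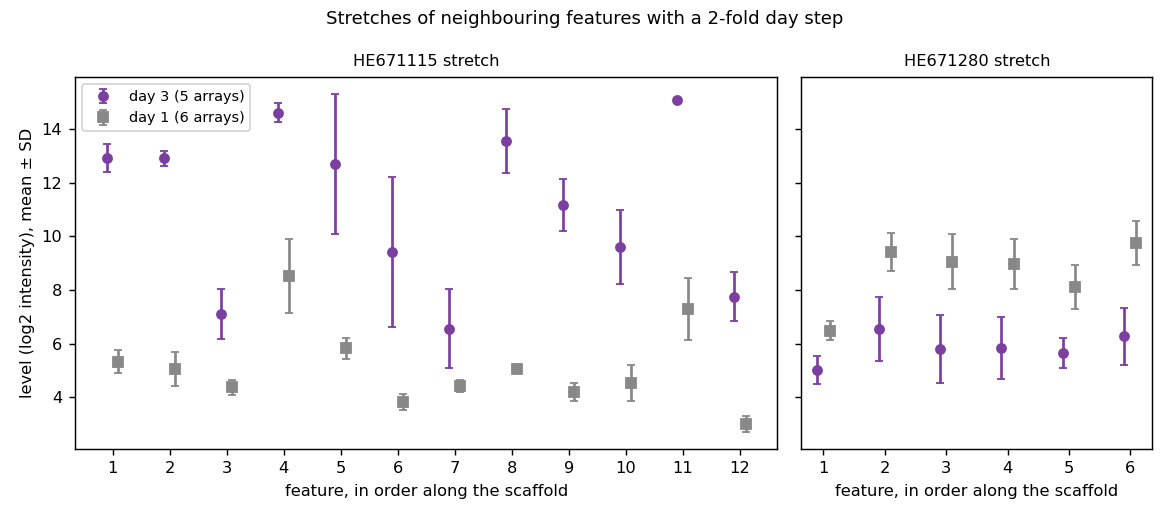
Mean level (log2 intensity) ± SD of each feature of the rising run on HE671115 and the falling run on HE671280, in order along the scaffold, with day 3 as purple circles (n = 5) and day 1 as grey squares (n = 6). All 12 features of the first run stand higher on day 3 and all 6 of the second stand lower, which follows from how runs were chosen.

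Of the 51 single features of the AC, BD and YB walks, 7 were called for the day step (13.7%, against 23.5% of all features). The median change was -0.04 over the 51 and -0.0029 over all features, and the median size of change 0.28 and 0.38 (log2). On the AC walk 3 of 16 features rose and 2 fell, on the BD walk 0 of 22 rose and 2 fell, and on the YB walk 0 of 13 were called, with changes between -0.54 and 0.64. A walk feature rests on 3 probes. Over the whole array the share called was 8.95% for features of 1 probe, 15.2% for those of 2 to 8 probes and 24.7% for those of 9 probes, and these shares were not compared by a test.

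The deepest fall on the AC walk was at AC_WALK:450400-483854. Its day 3 levels were 5.30, 4.68 and 5.48 in plesseni and 5.26 and 4.84 in malleti, against day 1 levels of 7.42, 7.29 and 7.68 in plesseni and 9.30, 8.59 and 9.45 in malleti. The days did not overlap, and on day 1 all 3 malleti arrays lay above all 3 plesseni arrays, although the race by day difference was not called (adjusted p = 0.179, limma). The change was -3.09 ± 0.34 (log2, SE; adjusted p = 4.59e-05, limma). The predicted gene of the same coordinates on HE668478, a feature of 9 probes, fell by 3.29 on the log2 scale. Later levels of the walk feature were lower still, 3.77 ± 0.70 on day 5 and 4.22 ± 0.48 on day 7 (SD, n = 6 each).

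Next to it, AC_WALK:486270-489436 was at 3.50, 4.07 and 3.59 in plesseni and 4.70 and 3.86 in malleti on day 3, against 5.45, 5.48 and 5.67 in plesseni and 5.55, 5.96 and 4.25 in malleti on day 1. The ranges overlapped, since replicate 53 of malleti on day 1 lay below replicate 11 of malleti on day 3. The change was -1.44 ± 0.32 (log2, SE; adjusted p = 0.00655, limma).

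Of the 3 AC walk features that rose, AC_WALK:292749-297843 changed most, by 2.74 ± 0.75 (log2, SE; adjusted p = 0.0202, limma). It stood at 8.98, 7.69 and 4.96 in plesseni and 7.78 and 4.66 in malleti on day 3, against 4.38, 4.65 and 2.82 in plesseni and 3.36, 4.84 and 4.18 in malleti on day 1. Day 3 was split, with 3 arrays high and 2 near the day 1 levels, and the ranges overlapped. AC_WALK:267761-273653 rose by 0.79 ± 0.16 (adjusted p = 0.00461) and AC_WALK:385746-390167 by 0.58 ± 0.17 (adjusted p = 0.0234), both log2 with SE by limma and both bright on either day. Adding the array left out turned the first of these to -0.45 (adjusted p = 0.827), and the second was not called in 10 of the 25 other settings tried.

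Over the 16 pairs of an AC walk feature and a predicted gene of equal coordinates on HE668478, the changes correlated at 0.983 (Pearson, pairs that share arrays and sequence position). Of these 16, 5 walk features and 4 predicted genes were called, 3 in both and in the same direction. AC_WALK:267761-273653 and AC_WALK:385746-390167 were called on the walk only, their predicted genes changing by 0.67 (adjusted p = 0.0970) and 0.32 (adjusted p = 0.304).

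On the BD walk, BD_WALK:342755-355247 had 4.11, 4.46 and 4.27 in plesseni and 2.87 and 4.36 in malleti on day 3, against 7.58, 6.86 and 7.66 in plesseni and 7.05, 6.48 and 7.13 in malleti on day 1. Every day 3 array lay below every day 1 array, and replicate 11 of malleti lay lowest. It fell by 3.17 ± 0.28 (log2, SE; adjusted p = 7.719e-06, limma), and it was the walk feature called in all 25 other settings. The proximal forewing (-2.70) and the hindwing (-2.96) were also called downward for it, while the eye's step of -1.20 was not called. BD_WALK:566679-567658 was at 4.92, 5.64 and 5.78 in plesseni and 5.80 and 5.47 in malleti on day 3, against 6.05, 6.78 and 5.80 in plesseni and 7.79, 7.71 and 7.88 in malleti on day 1. The days did not overlap, but their nearest arrays lay at 5.799 (day 3) and 5.804 (day 1), and the drop was mainly seen in malleti. The change was -1.38 ± 0.30 (log2, SE; adjusted p = 0.00586, limma), with a race by day difference that was not called (adjusted p = 0.248). The steps of this feature in the proximal forewing (-0.15), the hindwing (-0.27) and the eye (0.38) were not called.

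**Figure D4:**
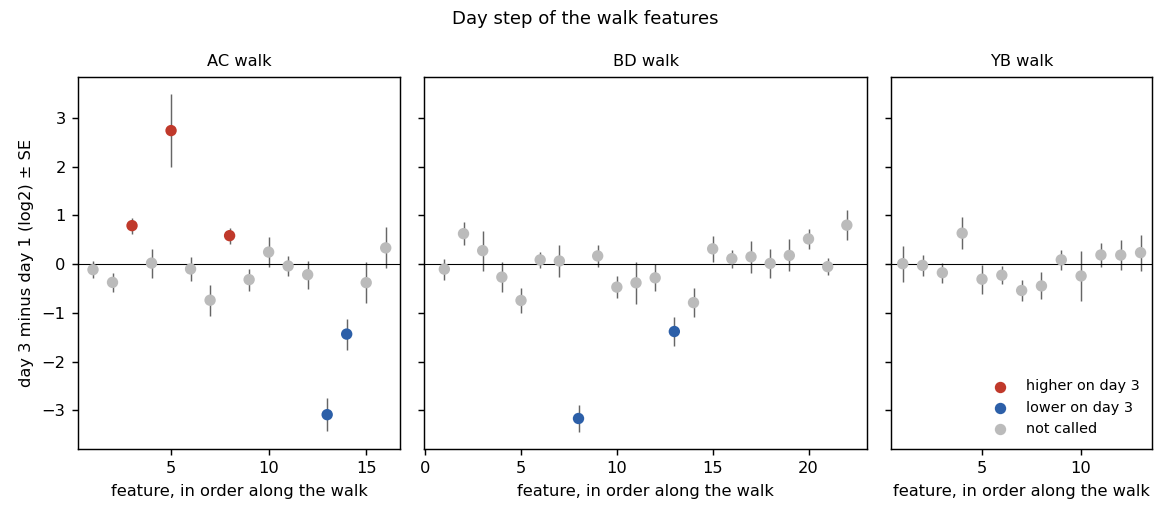
Day 3 minus day 1 in the distal forewing (log2, ± SE) for the single features of the AC, BD and YB walks in order along each walk. Red points were called higher on day 3, blue points lower and grey points not called, and 44 of the 51 points are grey.

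Fitted for each race on the same 11 arrays, the step was called in 1603 features in plesseni (12.5%) and 2440 in malleti (19%). In plesseni 738 rose (5.75%) and 865 fell (6.74%), and in malleti 1179 rose (9.19%) and 1261 fell (9.83%). Called in both races in the same direction were 1027 of the 12832 features tested. The order of these counts turned over without replicate 11 of malleti, with 1778 calls in plesseni and 1581 in malleti. Without any other single array malleti kept the larger count. The size of the counts also moved with single arrays, plesseni's being 828 without its replicate 4 and 852 without its replicate 54. On the deposited scale without quantile normalization plesseni had 1037 calls, 22.8% of them higher, where quantile normalization gave 46% higher, and malleti had 777 calls, 69.6% of them higher, against 48.3%. In plesseni the 2 largest rises and falls were those of the joint comparison, while in malleti 2 others entered. HE671115:223830-225883 changed by 9.09 ± 0.64 there (adjusted p = 1.104e-05) and HE671534:137250-137902 by -8.98 ± 1.72 (adjusted p = 0.00509; log2, SE, limma). HE671534:137250-137902 had 6.16, 7.45 and 6.30 in plesseni and 6.53 and 5.09 in malleti on day 3, against 14.83, 7.53 and 14.66 in plesseni and 14.56, 14.98 and 14.83 in malleti on day 1. Replicate 26 of plesseni on day 1 was thus at the day 3 level, while the other 5 day 1 arrays were between 14.56 and 14.98.

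The step itself differed between the races (plesseni minus malleti) in 3 features (0.0234%), 1 higher (0.00779%) and 2 lower (0.0156%), while 1798 features had an unadjusted p under 0.05. The median SE over features was 0.465 log2 units for this difference, against 0.248 for the day step. Large differences could thus go uncalled, the largest of them being 10.9 log2 units. HE670778:1-13774 was at 7.89, 8.10 and 8.44 in plesseni and 3.08 and 3.78 in malleti on day 3, against 3.99, 4.40 and 4.07 in plesseni and 3.56, 4.36 and 4.11 in malleti on day 1. Plesseni on day 3 stood apart from the other 3 groups, and the step differed by 4.57 ± 0.43 (log2, SE; adjusted p = 0.00757, limma).

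The other 2 set plesseni on day 1 apart. HE671481:65189-91376 was at 3.01, 2.32 and 3.56 in plesseni and 3.41 and 3.03 in malleti on day 3, against 6.61, 7.53 and 6.48 in plesseni and 2.93, 3.14 and 2.74 in malleti on day 1. The difference of steps was -4.19 ± 0.54 (log2, SE; adjusted p = 0.0487, limma). HE671499:190119-190890 was at 7.41, 7.28 and 6.76 in plesseni and 6.49 and 5.94 in malleti on day 3, against 10.79, 11.57 and 10.50 in plesseni and 6.13, 6.40 and 6.14 in malleti on day 1. Its step differed by -3.79 ± 0.47 (log2, SE; adjusted p = 0.0464, limma).

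The count of race by day calls rested on single arrays. It was 0 without replicate 4 or 54 of plesseni or replicate 53 of malleti, 1 without replicate 3 of malleti or 12 of plesseni, 6 without replicate 26 and 11 without replicate 56 of plesseni, 12 without replicate 25 of malleti, 16 without replicate 34 of plesseni and 22 without replicate 11 of malleti. On the deposited scale it was 17, all lower, against 33.3% higher after quantile normalization, and the median of all features was itself shifted there by -1.02 (log2).

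Set against the other sections, the distal forewing's step was close to that of the rest of the wing. The proximal forewing had 2348 called features of its own (18.3%), the hindwing 1451 (11.3%) and the eye 123 (0.959%), each from 12 arrays. Rises and falls made up 8.75% and 9.55% of all features in the proximal forewing, 5.67% and 5.64% in the hindwing and 0.717% and 0.242% in the eye. Across features, the log2 changes of the distal forewing correlated at 0.861 with those of the proximal forewing, 0.903 with those of the hindwing and 0.463 with those of the eye (Pearson, n = 12832 features, which share the quantile normalization).

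Of the features that rose in the distal forewing, 807 also rose in the proximal forewing, which is 56.3% of the distal and 71.9% of the proximal list. Those that fell in both numbered 830 (52.4% and 67.8%), and 1 feature moved in opposite directions. With the hindwing 634 rises were shared (44.2% of the distal and 87.2% of the hindwing list) and 645 falls (40.7% and 89.1%), with 0 opposed. With the eye 61 rises were shared (4.25% of the distal and 66.3% of the eye list) and 22 falls (1.39% and 71%), with 4 opposed. Dim arrays, with a median log2 intensity below 5.5, bore on these counts: without them the hindwing had 2091 calls and the eye 236.

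The 101 features that rose at least 16-fold in the distal forewing were also called upward in 101 cases in the proximal forewing, 98 in the hindwing and 43 in the eye. Of all features, 8.75%, 5.67% and 0.717% were called upward in those sections. The median step of the 101 was 5.13 in the distal forewing, 4.77 in the proximal forewing, 4.71 in the hindwing and 2.74 in the eye (log2). For the 56 that fell at least 16-fold the calls downward were 56, 53 and 9, against 9.55%, 5.64% and 0.242% of all features. Their median steps were -4.59 in the distal forewing and -3.84, -3.89 and -2.01 in those sections. As they were picked on the distal arrays, a larger median there follows from the choice.

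A test of the difference of steps, distal minus proximal, called 9 features (0.0701%; 7 higher and 2 lower), with 913 at an unadjusted p under 0.05. HE671584:137763-139002 differed by 4.43 ± 0.84 (log2, SE; adjusted p = 0.0468, limma). In the distal forewing it was at 5.14 ± 0.47 on day 3 (n = 5) and 4.57 ± 0.40 on day 1 (n = 6), and in the proximal forewing at 5.62 ± 1.19 and 9.47 ± 1.85 (SD, n = 6 each), so the proximal forewing on day 1 was the high group. The same held for HE669834:37757-41016, at 5.15 ± 0.49 and 4.87 ± 0.22 in the distal and 5.01 ± 0.46 and 7.33 ± 0.86 in the proximal forewing on day 3 and day 1, a difference of 2.55 ± 0.33 (adjusted p = 0.00190). Neither of these was called for its day step in the distal forewing, and the difference of HE671584:137763-139002 was not called in 24 of 33 other settings.

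HE668322:27483-33974 differed the other way, by -3.81 ± 0.72 (log2, SE; adjusted p = 0.0468, limma). This call was lost in 21 of 33 other settings. In the distal forewing it averaged 6.70 ± 0.64 on day 3 and 8.05 ± 2.13 on day 1, where the plesseni arrays of day 1 stood at 10.25, 10.62 and 8.81 and the malleti arrays at 6.10, 5.78 and 6.76. In the proximal forewing it was at 8.34 ± 0.67 on day 3 and 6.12 ± 0.98 on day 1. HE672074:174226-185238 fell in both forewing sections, and further in the distal one, by -1.76 ± 0.26 (log2, SE; adjusted p = 0.00416, limma): 6.13 ± 0.20 against 9.78 ± 0.35 in the distal and 7.06 ± 0.24 against 8.96 ± 0.20 in the proximal forewing, day 3 against day 1. With each array centred on its median in place of quantile normalization 951 features differed, 95% of them higher, where the 9 were 77.8% higher. Leaving out 1 array gave 4 to 12 calls, with 4 or 5 for 14 of the 23 arrays.

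Against the hindwing 0 features differed (limma, smallest adjusted p = 0.987). An unadjusted p under 0.05 was found for 265 of 12832 features, a smaller share than 0.05 itself. A fit over 95 arrays called 2. Without replicate 26 of plesseni in the distal forewing there were 11, and without 1 plesseni hindwing array of day 3 there was 1. The 95% interval of a feature's difference of steps had a median half-width of 0.96 log2 units against the hindwing, 0.83 against the proximal forewing and 1.26 against the eye. These intervals are not adjusted for the number of features tested, so differences somewhat beyond them could also go uncalled.

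The eye differed from the distal forewing in 381 features (2.97%), 198 with a higher (1.54%) and 183 with a lower step in the wing (1.43%), and 1872 had an unadjusted p under 0.05. HE669250:44846-49165 differed most upward, by 6.27 ± 1.24 (log2, SE; adjusted p = 0.00722, limma). It was at 10.31, 8.86 and 11.98 in plesseni and 8.44 and 11.62 in malleti on day 3, against 5.14, 5.44 and 4.93 in plesseni and 4.46, 3.97 and 4.74 in malleti on day 1 of the distal forewing, while the eye averaged 10.24 ± 1.43 on day 3 and 11.11 ± 2.25 on day 1 (SD, n = 6 each). The wing on day 3 thus stood at the eye's level. Later distal forewing levels were 10.66 ± 1.12 on day 5 and 10.81 ± 0.42 on day 7 (SD, n = 6 each).

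HE671188:270-14305 was at 10.93, 10.34 and 8.74 in plesseni and 11.23 and 13.20 in malleti on day 3, against 6.86, 6.02 and 7.18 in plesseni and 6.72, 5.44 and 6.12 in malleti on day 1. The days did not overlap, and its step differed from the eye's by 5.96 ± 0.99 (log2, SE; adjusted p = 0.00211, limma).

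A lower step in the wing than in the eye was led by 2 features that rose in the eye. HE668322:27483-33974 averaged 11.58 ± 0.71 on day 3 and 6.20 ± 2.19 on day 1 in the eye, so its step was lower in the distal forewing by -6.96 ± 1.01 (log2, SE; adjusted p = 4.981e-04, limma). HE671124:53495-65851 was at 5.70, 5.69 and 6.26 in plesseni and 5.18 and 5.30 in malleti on day 3 in the distal forewing, against 8.58, 8.05 and 8.65 in plesseni and 8.38, 9.50 and 7.17 in malleti on day 1. The eye averaged 13.23 ± 1.03 on day 3 and 9.25 ± 1.94 on day 1 (SD, n = 6 each), and the steps differed by -6.78 ± 0.99 (log2, SE; adjusted p = 5.284e-04, limma). The count against the eye was 1393 without the dim arrays, 250 without replicate 11 of malleti in the distal forewing and 658 without replicate 73 of malleti in the eye on day 1. It was 78 on the deposited scale, 78.2% of them higher, against 52% after quantile normalization.

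**Figure D5:**
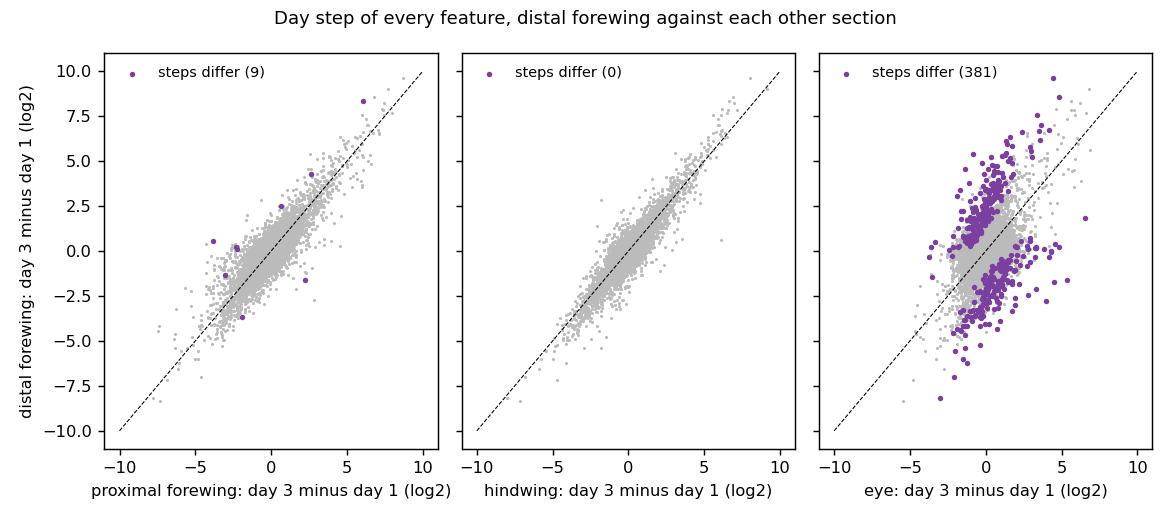
Day 3 minus day 1 (log2) in the distal forewing on the vertical axis against that in the proximal forewing, hindwing and eye on the horizontal axes, 1 point per feature, with a dashed line of equality. Purple points mark features whose steps differed (9, 0 and 381), and the cloud follows the line in both wing sections and spreads from it against the eye.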

How the data were processed

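Per the labels' protocols, total RNA of pupal tissue was labelled with Cy3 and hybridised to NimbleGen arrays, 1 sample each. The deposited intensity of each feature, 1 per array, is linear, and the submitters' processing notes name RMA. Its settings, the genome build and the background correction were not given in the sources used here, and the deposited series value table held the same intensities (0 differences). Medians differed between arrays, so log2 intensities were quantile-normalized over the 96 arrays. limma 3.58.1 in R 4.3.3 (lmFit, eBayes) fitted day with race as a factor (8 residual degrees of freedom), with p-values adjusted over all 12832 features. Race by day and each race's step used the 4 group means. Tissue differences used the 11 distal arrays and 12 of the other section, race within tissue.

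Replicate 55, labelled malleti distal forewing day 3, was left out. The features named are, for each comparison, the 2 largest rises and 2 largest falls past the threshold with at least 3 probes (for the day step, with no overlap of arrays), each walk feature called, and each run of at least 5 neighbours changed by 2-fold one way. Members and lists were chosen with earlier results of these data known. The scripts were tested on simulated data. Replicates are separate samples per the labels.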

Additional observations from a re-analysis of the deposited data

Results flagged for a closer look

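Among the named features, 28 groups of arrays were checked for a single array far from the others, and chance alone sets off about 1 group in 20. There were 4 such arrays. HE671534:137250-137902 was at 7.53 in replicate 26 of plesseni on day 1, the other 5 arrays lying between 14.56 and 14.98. HE671115:223830-225883 was at 11.46 in replicate 56 of plesseni on day 3, the others at 13.85 to 14.48. AC_WALK:486270-489436 was at 4.25 in replicate 53 of malleti on day 1, the others at 5.45 to 5.96, and BD_WALK:342755-355247 at 2.87 in replicate 11 of malleti on day 3, the others at 4.11 to 4.46.

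Differences of the day step between groups are listed here for the features named as the largest of each such comparison, each past a test of the difference itself. Between the races (plesseni minus malleti) these were HE670778:1-13774 (4.57), HE671481:65189-91376 (-4.19) and HE671499:190119-190890 (-3.79). Of the 9 between the distal and the proximal forewing the largest each way were HE671584:137763-139002 (4.43), HE669834:37757-41016 (2.55), HE668322:27483-33974 (-3.81) and HE672074:174226-185238 (-1.76). Of the 381 between the distal forewing and the eye they were HE669250:44846-49165 (6.27), HE671188:270-14305 (5.96), HE668322:27483-33974 again (-6.96) and HE671124:53495-65851 (-6.78). All are log2 differences of steps.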

How the results depend on the processing

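The labels number the samples from 1 to 96 with no number shared between groups. No paired analysis was possible because the groups compared share no replicate number. The day step gave 1261 calls on the deposited scale (all at least 2-fold), 1528 with the array left out added and 1717 in a fit over 95 arrays. It gave 1754 within gain 440 and 365 within gain 460 (all 365 at least 2-fold), the latter without a race term. Leaving out 1 array gave 2404 to 3222 calls, and 1795 to 2197 at 2-fold. The 7 walk calls became 4 over 95 arrays, 4 within gain 440, 1 within gain 460 and 13 with array weights, and 5 to 10 without 1 array. Runs of 5 or more neighbours numbered 4 with median-centred arrays, 4 with quantile normalization over the compared arrays, 1 with the left-out array, 0 within gain 460, and 2 to 4 without 1 array (4 without replicate 33 of malleti). Race by day gave 17 on the deposited scale, 16 without the dim arrays (a setting chosen after seeing the data) and 0 with centred arrays, the left-out array, 95 arrays or gain as a covariate, and 0 to 22 without 1 array. Of the 11 arrays only replicate 34 of plesseni is dim, so here leaving out the dim arrays is leaving out that array. Plesseni's step gave 1037, 489 and 828 on the deposited scale, with the left-out array and over 95 arrays, and 828 to 2010 without 1 array (828 without replicate 4, 852 without replicate 54). Malleti's gave 777, 1000 and 952, and 1581 (without replicate 11) to 2730. Distal minus proximal gave 0 on the deposited scale, 951 centred, 1 with the left-out array, 4 with gain as a covariate, and 4 to 12 without 1 array, with 4 or 5 when any of replicates 1, 2, 3, 4, 9, 10, 12, 53, 54, 56, 75, 77, 83 and 84 was left out. Distal minus hindwing gave 2 over 95 arrays and 0 to 11. Distal minus eye gave 78, 147 and 742 on the deposited scale, with the left-out array and over 95 arrays, 1393 without the dim arrays and 250 to 658 without 1 array. The rise of AC_WALK:267761-273653 was -0.448 with the left-out array added. The cause of these changes was not tested. The median of all features moved by -0.144 (deposited) and 0.178 (centred) in the day step, by -0.62 and 0.26 for plesseni and by 0.472 (deposited) for malleti. HE671547:73513-80980, HE670537:48899-54230, HE670515:13623-20570 and HE670342:30-224 were called in all 25 other settings. Signal over background is not given in the deposited values, so how far background limits dim features was not tested.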

Other observations

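Some features differed more among the 5 day 3 arrays than between the days. The SD about the race means was over 2 for 155 features on day 3 and for 26 on day 1. The feature with the widest day 3 spread, chosen after its values were seen, was HE671314:135257-138363, read by 9 probes. It stood at 9.205, 13.72 and 4.18 in plesseni (replicates 12, 34 and 56) and 13.59 and 4.79 in malleti (replicates 11 and 33) on day 3, against 5.35, 5.63 and 5.61 in plesseni and 5.41, 5.35 and 5.77 in malleti on day 1. On day 3, replicates 33 and 56 lay below every day 1 array and the other 3 above all of them, and the day step was not called (3.58, adjusted p = 0.142, limma). On day 5 the distal forewing averaged 8.22 ± 1.63 (SD, n = 6). HE670953:15963-18972, also chosen after its values were seen, was at 6.25, 12.83 and 9.38 in plesseni and 12.67 and 4.80 in malleti on day 3, against 5.29, 6.44 and 4.81 in plesseni and 4.22, 4.53 and 4.11 in malleti on day 1. Its day step was called (4.18, adjusted p = 0.0382, limma). The arrays were not ordered alike in all features of wide spread: HE671289:1778-3128, which has 1 probe and was also chosen after its values were seen, was at 2.46, 9.57 and 9.80 in plesseni and 2.71 and 10.18 in malleti on day 3, against 8.15 to 10.10 on day 1. HE671269:186144-187513, chosen likewise and also of 1 probe, was split as HE671289:1778-3128 was. It stood at 3.33, 10.06 and 10.63 in plesseni and 4.11 and 11.19 in malleti on day 3.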
